A study of Mus musculus with 6 samples.

Results

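Expression of 10 genes of myoblast fusion and cell contact was examined in cultured muscle stem cells (MuSCs). The set was given as a list of names and comprises the fusogens Mymk and Mymx, the adhesion molecules Cdh15, Jam2, Jam3, Kirrel and Nphs1, the membrane-repair ferlin Myof, and the co-receptors Cdon and Boc. A value was found for 9 of the 10 genes, among the 18943 genes of the deposited table. Nphs1, which encodes nephrin, was not analysed here.

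Skeletal muscle fibers form when mononucleated myoblasts leave the cell cycle, adhere to each other and merge their plasma membranes. Cadherins, junctional adhesion molecules and nephrin-type immunoglobulin proteins hold the membranes together, actin regulators push them against each other, and the muscle-specific fusogens myomaker (Mymk) and myomixer (Mymx) drive lipid mixing and opening of the fusion pore. The fusogens are characteristic of differentiating myoblasts and are little expressed in undifferentiated MuSCs.

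MuSCs had been purified by FACS from WT C57BL/6 mice aged 8 weeks and kept in culture for 5 days. The control cells received DMSO, a solvent, and the other groups received ET-3 (endothelin-3) or NT (neurotensin), peptide ligands of G protein-coupled receptors, each at 100 nM according to the sample labels. The study's methods give higher concentrations, so the dose is uncertain. Each of the 3 groups comprised 2 libraries, and the sample labels do not say whether these came from separate animals or cultures. The study speaks of biological replicates in triplicate, whereas 2 libraries per group were analysed here, so the p-values measure the spread between these libraries, which may be technical.

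The deposited values are whole numbers that proved to be read counts multiplied by a factor for each library. They summed to between 4214458 and 4600575 per library, which corresponded to between 3629256 and 5396233 reads on genes after removal of the factors, and 17057 to 17678 genes had a value above 0. At a value of 100, counting error alone amounts to between 8.84% and 10.9% of the value. The mean chi-square per gene between the libraries of a pair was 1.439 in DMSO, 0.891 in ET-3 and 0.953 in NT, so both treated pairs differed by no more than the sampling noise, and results were also computed with the mean of each treated pair as 1 sample.

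The label MuSC was examined through markers. All 10 listed MuSC markers were in the table, among them Pax7, with values of 857 and 1070 in DMSO, 1754 and 1730 in ET-3, and 1653 and 1599 in NT, whereas Calcr stayed below 5 in every library. The summed value of the MuSC markers was 8394 to 9011 in DMSO, 9636 to 10016 in ET-3 and 8469 to 8710 in NT. The sum of 8 markers of terminal differentiation was 30203 to 33470 in DMSO, against 1846 to 2145 in ET-3 and 1926 to 2382 in NT. Markers of other cell types also moved with the treatment. Summed values were 12 to 24, 96 to 104 and 85 to 107 in DMSO, ET-3 and NT for 4 of 6 endothelial markers, and 204 to 211, 70 to 77 and 90 to 97 for 4 of 6 fibroadipogenic markers, of which Col1a1 fell (148 and 146 in DMSO, 7 and 2 in ET-3, 8 and 8 in NT) while Ly6a (27 and 18, 37 and 43, 38 and 52) rose. They were 25 to 32, 55 to 77 and 51 to 60 for 3 of 6 macrophage markers, and 160 to 182, 641 to 644 and 646 to 713 for 4 of 6 Schwann cell markers. The 6 mural markers summed to 2356 to 2815 in DMSO, 748 to 798 in ET-3 and 878 to 925 in NT. Of the defining genes, Cdh5 of endothelial cells lay between 0 and 5, Dcn of fibroadipogenic cells between 0 and 17, and Myh11 of mural cells between 0 and 4. Pdgfra, another fibroadipogenic marker, was at 20 and 30 in DMSO, 26 and 30 in ET-3, and 44 and 37 in NT. The part of these cell types in the results below was not tested.

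Differences were tested with limma on log2(value + 1), a scale that understates the change of low values, over the 13921 genes whose mean value reached 5. A gene passed the test when its p, adjusted by the Benjamini-Hochberg procedure, did not exceed 0.05, and it was called when its level also changed at least 2-fold. All 9 genes entered the test, Mymx only through its DMSO libraries, so its presence among the tested genes already implies a difference. The ligand comparisons share their DMSO libraries and are therefore given side by side.

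Both ligands nearly abolished the transcripts of the fusogens and strongly lowered Cdh15, whereas the other 6 genes changed less than 2-fold. With ET-3, 3 of the 9 genes were called lower (Mymk, Mymx and Cdh15), compared to 14.9% of all tested genes, and 0 were called higher, compared to 6.62%. With NT, the same 3 genes were called lower (13.2% of all tested genes) and 0 higher (7.3%). Without the demand for a 2-fold change, 6 genes were lower with ET-3 (33.2% of all tested genes), namely these 3 and Jam2, Jam3 and Cdon, and 1 was higher (30.6%), namely Myof. The same 6 genes were lower with NT (32.5%), and 1 was higher (29.7%), namely Kirrel. The median log2 fold change over the 9 genes was -0.29 under ET-3, also with Mymx set to its bound, and -0.33 under NT, and over all tested genes it was -0.01 in both comparisons. In these bulk samples, fewer cells that express a gene and less RNA of that gene in each cell cannot be told apart.

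**Figure D1:**
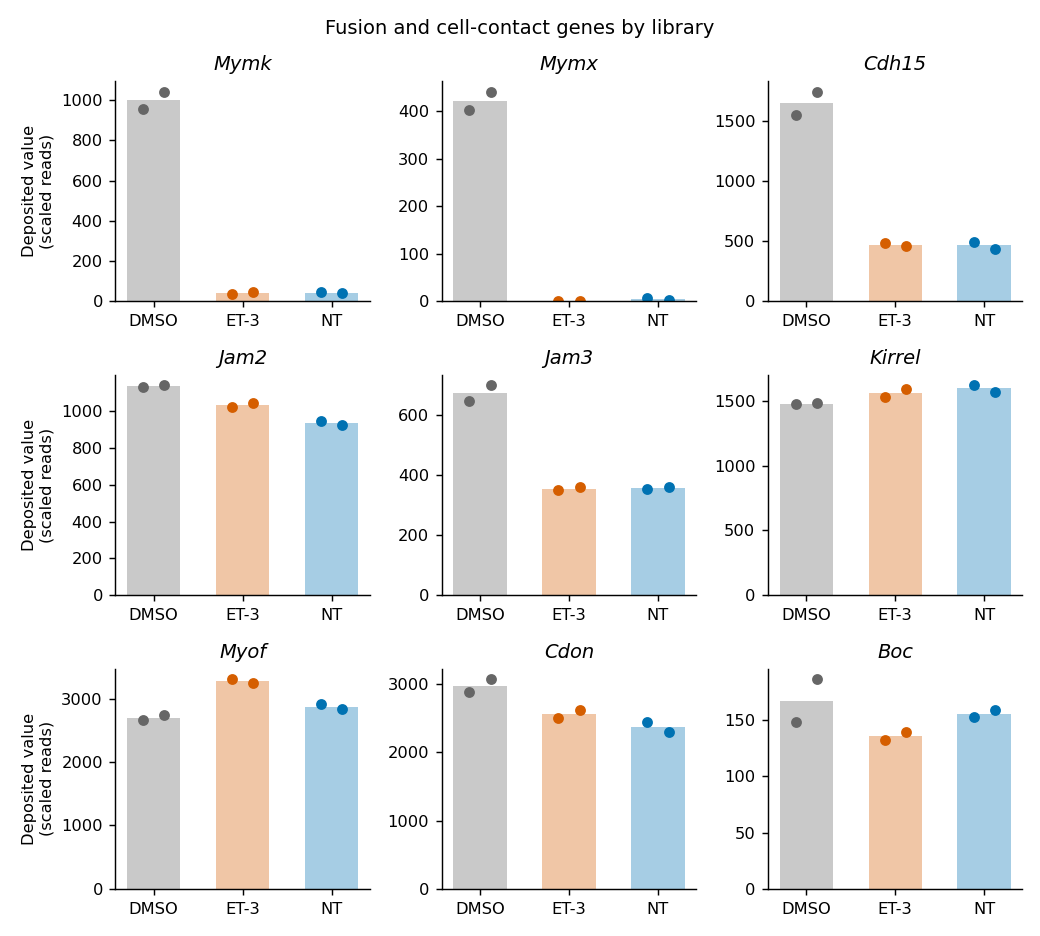
Deposited values (scaled reads, y axis from 0 in each panel) of the 9 genes in the 2 libraries of each group (points), with the group mean (bars). Mymk, Mymx, Cdh15 and Jam3 lie far lower in all 4 treated libraries than in both DMSO libraries, whereas Kirrel lies between 1477 and 1620 throughout.

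Mymk (ENSMUSG00000009214, chr2:27061636-27072179, minus strand, GRCm38) encodes myomaker, the multipass membrane protein that makes myoblasts competent to fuse. Its values were 956 and 1043 under DMSO, 36 and 44 under ET-3, and 47 and 40 under NT. Every treated library lay far below both controls, and the treated groups overlapped each other. The mean of 999.5 ± 61.5 (SD, n = 2) with DMSO fell to 40 ± 5.66 under ET-3, which is 4.00% of the control, and to 43.5 ± 4.95 under NT, which is 4.35%. The log2 fold change was -4.61 ± 0.13 (SE, limma, Benjamini-Hochberg adjusted p = 3.21e-09) for ET-3 and -4.49 ± 0.13 (limma, adjusted p = 4.33e-09) for NT. Between the ligands, the difference NT minus ET-3 was 0.12 (95% interval -0.18 to 0.42) and did not pass the test (limma, adjusted p = 0.672).

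Mymx (ENSMUSG00000079471, chr17:45600971-45602102, minus strand) encodes myomixer, also known as myomerger or minion, the micropeptide that acts with myomaker. Values of 403 and 441 under DMSO were set against 0 and 0 under ET-3 and 6 and 2 under NT. Thus the transcript was not detected in either ET-3 library, whereas few reads remained in both NT libraries. Set against a floor of 3 counts per library, which is a value of 3.43, Mymx was at least 123-fold lower with ET-3 than with DMSO. With NT it was 103-fold lower, with an exact 95% interval of 55.7 to 216 for the ratio of 404 and 385 recovered reads in DMSO to 7 and 3 in NT, which covers counting error only. Both decreases passed the test (limma, adjusted p = 6.85e-08 for ET-3 and 5.53e-07 for NT).

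Mymx was the only 1 of the 9 genes called between the ligands, with a fitted log2 difference of 2.20 ± 0.42 (SE) in favour of NT (limma, adjusted p = 0.0379). Because ET-3 was at 0, the size depends on the pseudocount and was 3.01 with a pseudocount of 0.5 and 0.81 with 5. Without NT replicate 1 it was 1.58. Among all tested genes, 0.0503% were called higher with NT than with ET-3 and 0.0287% lower. The call rests on 7 and 3 recovered reads in NT against 0 in ET-3. It was lost under 10 of 15 alternatives, among them the omission of any of the 6 libraries (limma, adjusted p = 0.146 to 0.459). Of the other genes, 1 was lower with NT than with ET-3 by adjusted p alone, namely Myof (2.05% of all tested genes), Mymx was the only gene to pass in the opposite direction (0.647%), and 7 did not pass. The median log2 difference was 0.01 for the 9 genes and 0.03 for all tested genes.

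Cdh15 (ENSMUSG00000031962, chr8:122847966-122867397, plus strand) encodes M-cadherin, the calcium-dependent adhesion protein of MuSCs and myoblasts. Its values amounted to 1547 and 1746 under DMSO, 483 and 462 under ET-3, and 496 and 436 under NT. Both treated groups lay far below the controls and overlapped each other. The mean decreased from 1647 ± 141 (SD, n = 2) to 473 ± 14.8 under ET-3, 28.7% of the control, and to 466.0 ± 42.4 under NT, 28.3% of the control. On the log2 scale the change was -1.80 ± 0.07 (SE, limma, adjusted p = 2.58e-08) with ET-3 and -1.82 ± 0.07 (limma, adjusted p = 2.57e-08) with NT. The difference between the ligands was -0.02 (95% interval -0.19 to 0.14, limma, adjusted p = 0.912).

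Among the 3 called genes, Cdh15 has an entry in the RefSeq promoter table, which holds 4 of the 9 genes. The sequence is shown because Cdh15 fell with both ligands and because E-boxes (CANNTG), the hexamers bound by myogenic basic helix-loop-helix factors, can be read in it. It runs from 250 bases before to 50 bases after the RefSeq start (GRCm38.p6, chr8:122848124-122848423, plus strand), and capitals mark each CANNTG:
Cdh15 promoter: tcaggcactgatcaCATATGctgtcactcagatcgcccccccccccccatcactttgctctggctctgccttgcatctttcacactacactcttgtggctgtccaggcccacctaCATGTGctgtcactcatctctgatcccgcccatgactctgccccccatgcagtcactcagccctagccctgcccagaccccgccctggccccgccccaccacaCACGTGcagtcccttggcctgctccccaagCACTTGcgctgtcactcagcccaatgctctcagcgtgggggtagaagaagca
The window holds 4 E-boxes, whose first bases lie at -236 (CATATG), -135 (CATGTG), -32 (CACGTG) and -2 (CACTTG) relative to the start. CAGCTG and CAGGTG, both forms of CANNTG that myogenic factors are known to prefer, were found 0 times on either strand (CAGGTG was also read as CACCTG). Of 32851 RefSeq promoters of the same length, 72.3% hold CANNTG, 6.37% hold at least 4 of them, 16.3% hold CAGCTG and 20.2% hold CAGGTG. The windows of Kirrel, Cdon and Myof, the other genes in the table, hold 0 E-boxes. The RefSeq start of Cdh15 lies 408 bases from the gene start in the deposited table, so the window describes the RefSeq start only. For Cdon this distance is 30948 bases, for Kirrel 210 and for Myof 0. The windows are therefore not placed alike, and their E-box counts are no like-for-like comparison.

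The junctional adhesion molecules Jam2 and Jam3 bind each other between neighbouring cells, and both are known from myoblast fusion in fish. Jam3 (ENSMUSG00000031990, chr9:27097384-27155421, minus strand) had values of 646 and 698 under DMSO, 349 and 360 under ET-3, and 352 and 360 under NT. The treated libraries lay close together and well below both controls. Jam3 fell to 52.8% of the control with ET-3 and to 53.0% with NT, with log2 fold changes of -0.92 ± 0.06 (SE, limma, adjusted p = 4.56e-07) and -0.91 ± 0.06 (limma, adjusted p = 5.12e-07). The change thus stayed just under the 2-fold threshold. The antisense gene Gm48796 overlaps 1159 exonic bases of Jam3 (36.2% of its exonic length), where reads were either shared or left out. Gm48796 itself showed a log2 fold change of 0.49 under ET-3 (limma, adjusted p = 0.173) and 0.35 under NT (limma, adjusted p = 0.320).

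Jam2 (ENSMUSG00000053062, chr16:84774123-84825928, plus strand) changed far less. It was measured at 1131 and 1140 under DMSO, 1021 and 1042 under ET-3, and 944 and 925 under NT. The 3 groups did not overlap. The log2 fold change was -0.14 ± 0.04 (SE, limma, adjusted p = 0.0146) with ET-3 and -0.28 ± 0.04 (limma, adjusted p = 0.000217) with NT. The ET-3 difference no longer passed when values were scaled to library totals (-0.05, limma, adjusted p = 0.298) or upper quartiles (adjusted p = 0.102), with each treated pair as 1 sample (adjusted p = 0.105) and without ET-3 replicate 1 (adjusted p = 0.0744). Per exonic length, the level of Jam2 relative to that of Jam3 was 0.927 and 0.865 in the DMSO libraries, 1.55 and 1.53 under ET-3, and 1.42 and 1.36 under NT. By full exonic length, the order of both receptors was therefore turned in all 4 treated libraries, with no test of the ratio. This order assumes that reads were counted over all exonic bases of Jam3. If reads on the 1159 bases shared with Gm48796 were left out, the level of Jam3 is given too low. By the remaining exonic bases alone, Jam2 would then stay below Jam3 in every library, and the order would not turn. Which case holds depends on whether strand was used in counting, which is uncertain.

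Kirrel (ENSMUSG00000041734, chr3:87078593-87174747, minus strand) encodes a nephrin-like immunoglobulin protein, related to the fly proteins through which founder and fusion-competent myoblasts recognise each other. Its values were 1477 and 1482 under DMSO, 1530 and 1589 under ET-3, and 1620 and 1572 under NT. All treated libraries lay slightly above the controls, and the treated groups overlapped. The log2 fold change was 0.08 (95% interval -0.02 to 0.17, limma, adjusted p = 0.142) with ET-3 and 0.11 ± 0.04 (SE, limma, adjusted p = 0.0446) with NT. With ET-3 it also passed when values were scaled to library totals (0.16, adjusted p = 0.00354) or upper quartiles (adjusted p = 0.0294). The NT difference did not pass under 9 of 16 alternatives, among them the omission of any of the 6 libraries (adjusted p = 0.0572 to 0.205).

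Myof (ENSMUSG00000048612, chr19:37899036-38043577, minus strand) encodes myoferlin, a calcium-binding membrane protein that takes part in vesicle traffic, membrane repair and myoblast fusion. Values of 2664 and 2734 under DMSO compared to 3307 and 3242 under ET-3 and 2910 and 2836 under NT. The groups did not overlap, and ET-3 was highest. Myof rose by 0.28 ± 0.04 (SE) on the log2 scale with ET-3 (limma, adjusted p = 0.000188), whereas the change of 0.09 ± 0.04 under NT did not pass (limma, adjusted p = 0.0796), although it passed under 4 of 16 alternatives, among them scaling to library totals (0.20, adjusted p = 0.000419). The difference NT minus ET-3 was -0.19 (limma, adjusted p = 0.0466), and it did not pass under 11 of 16 alternatives, including the omission of any of the 6 libraries (adjusted p = 0.145 to 0.459). With each treated pair as 1 sample the rise with ET-3 had an adjusted p of 0.0541 (limma). Of the other ferlins, only Dysf was high enough to test, and this gene for dysferlin, the membrane-repair protein of mature fibers, went from 800 and 852 under DMSO to 102 and 90 under ET-3 and 89 and 99 under NT (log2 fold changes -3.09 and -3.12, limma, adjusted p = 4.07e-09 and 4.44e-09). Thus Myof and Dysf moved in opposite directions with ET-3, Myof by far the less.

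Cdon and Boc encode cell-surface immunoglobulin proteins that bind each other and cadherins at sites of contact between myoblasts and also act as co-receptors of Hedgehog ligands. Cdon (ENSMUSG00000038119, chr9:35421128-35507652, plus strand) had values of 2883 and 3070 under DMSO, 2500 and 2615 under ET-3, and 2440 and 2299 under NT. All treated libraries lay below both controls. Cdon fell by 0.22 on the log2 scale with ET-3 (SE 0.05, limma, adjusted p = 0.00328) and by 0.33 under NT (SE 0.05, limma, adjusted p = 0.000254). The ET-3 difference did not pass without DMSO replicate 2 (adjusted p = 0.0626), without ET-3 replicate 1 (adjusted p = 0.0594) and, like the NT difference, with each treated pair as 1 sample (adjusted p = 0.12 and 0.0748).

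Boc (ENSMUSG00000022687, chr16:44485049-44558897, minus strand) was the lowest of the remaining genes, with values of 148 and 186 in DMSO, 132 and 139 in ET-3, and 152 and 159 in NT. The DMSO libraries lay far apart, and NT lay between them. The log2 fold change was -0.29 ± 0.12 (SE, limma, adjusted p = 0.0514) with ET-3 and -0.09 ± 0.12 (limma, adjusted p = 0.511) with NT. The ET-3 difference passed under 4 of 16 alternatives, at -0.45 without DMSO replicate 1 (limma, adjusted p = 0.0132), and without DMSO replicate 2 the NT difference turned to 0.07. Per exonic length, Cdon exceeded Boc 11.2- and 9.52-fold in DMSO, 10.9-fold in both ET-3 libraries, and 9.26- and 8.34-fold in NT.

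**Figure D2:**
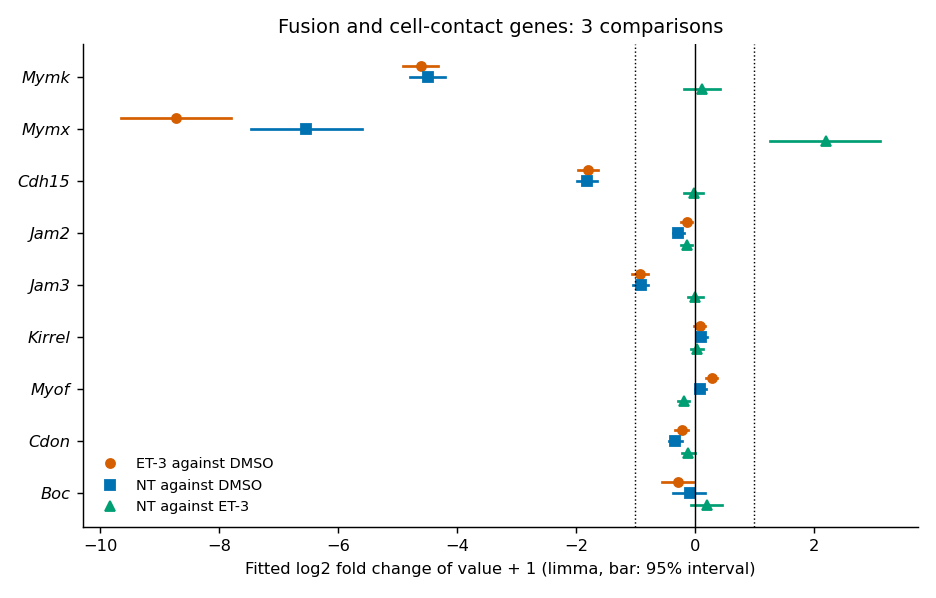
Fitted log2 fold change of value + 1 (x axis; points, with bars for 95% intervals from limma) of the 9 genes (y axis) for each ligand compared to DMSO and for NT compared to ET-3. Dotted lines mark a 2-fold change. Mymk, Mymx and Cdh15 lie beyond it for both ligands, and the values of Mymx for ET-3 (-8.72) and between the ligands (2.20) rest on ET-3 libraries at 0 and are no bound.

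Levels were compared between genes as values per exonic kilobase. The level of Jam3 is too low if reads on the bases shared with Gm48796 were left out, so its place is uncertain. In DMSO, Mymk ranked first with a mean level of 661, followed by Cdh15 (506), Mymx (411), Cdon (386), Myof (214), Jam3 (210.0), Kirrel (198), Jam2 (188) and Boc (37.5). The libraries of Mymx and Cdon overlapped, as did those of Myof and Jam3, whereas the other neighbours did not. With both ligands the order was Cdon, Myof, Kirrel, Jam2, Cdh15, Jam3, Boc, Mymk and Mymx, with no overlap between neighbours. Mean levels ran from 331 for Cdon to 26.5 for Mymk and 0 for Mymx with ET-3, and from 307 for Cdon to 28.8 for Mymk and 3.89 for Mymx with NT. Hence, the fusogens moved from ranks 1 and 3 to ranks 8 and 9 of the 9 genes. Per exonic length the level of Mymk was 1.61 times that of Mymx in both DMSO libraries, and 5.32 and 13.6 times in the NT libraries, where Mymx rests on 7 and 3 reads.

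**Figure D3:**
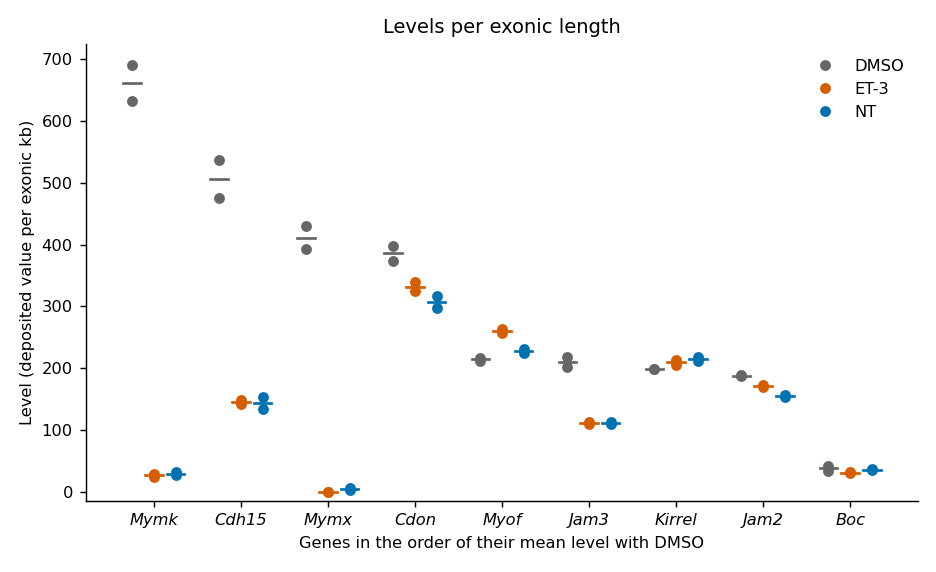
Level of each gene as deposited value per exonic kilobase (y axis, linear) in the 2 libraries of each group (points) with the group mean (dashes), with the genes in the order of their mean level in DMSO (x axis). Mymk, Cdh15 and Mymx lead in DMSO, whereas Cdon leads with ET-3 (331) and NT (307).

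The genes with a profile most like that of each fusogen were searched among all tested genes by the root mean square difference of centred log2 values over the 6 libraries. For Mymk, these were Klhl31 (0.079), which encodes a kelch protein of muscle, Fndc5 (0.08), which encodes the precursor of irisin, Tmem38a (0.081), which encodes a cation channel of the sarcoplasmic reticulum, Mybpc2 (0.117), which encodes the fast myosin-binding protein C, and the unnamed gene model Gm45512 (0.117). Klhl31, the nearest, had values of 713 and 720 under DMSO, 25 and 27 under ET-3, and 33 and 28 under NT. Mybpc2 and Gm45512 were at 0 in all 4 treated libraries and reached at most 24 in DMSO, so their likeness is coarse. For Mymx, the nearest reported here were Actc1 (0.405), the alpha-actin of heart and developing muscle, Tnfrsf13c (0.519), the receptor for the B cell factor BAFF, and Myoz2 (0.585), a Z-disc protein. Actc1, the nearest, had 1202 and 1392 under DMSO, 1 and 2 under ET-3, and 9 and 6 under NT. The genes reported as nearest to Mymx reached the filter on low values only through their DMSO libraries. Their likeness is therefore coarse as well.

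**Figure D4:**
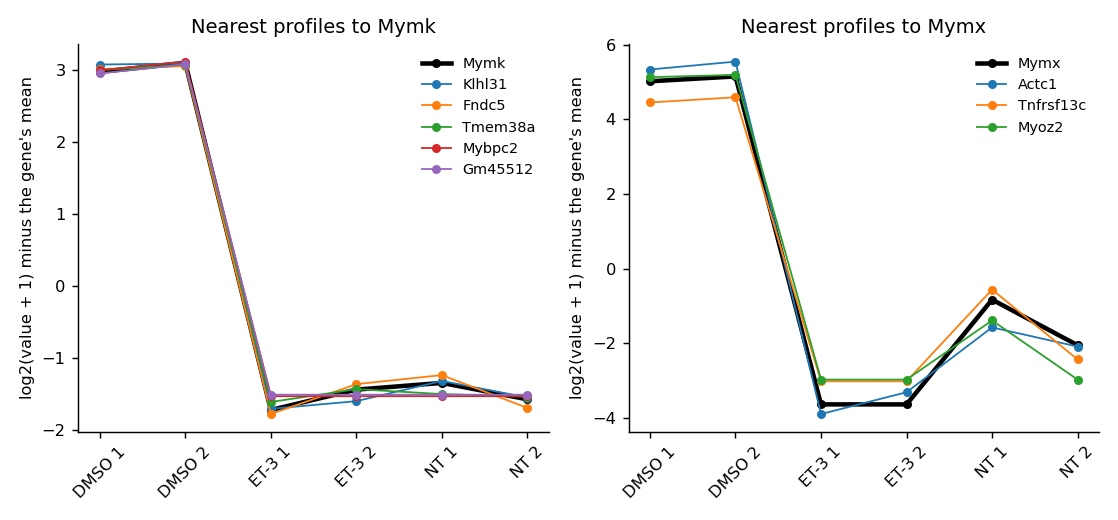
log2(value + 1) minus the mean of each gene over the 6 libraries (y axis) by library (x axis) for Mymk (left, black) and Mymx (right, black) and the genes named in the text as nearest to each by root mean square difference. The profiles of Mymk and its 5 nearest genes differ by 0.079 to 0.117, and those of Mymx and the 3 genes shown by 0.405 to 0.585.

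The actin and membrane machinery used in fusion changed in both directions and mostly by less than 2-fold. Of 36 listed genes, 34 were tested, of which 4 were called lower with ET-3 and 3 under NT, and 0 were called higher, against 14.9% and 13.2% of all tested genes called lower and 6.62% and 7.3% called higher. By adjusted p alone, 13 were lower and 13 higher with ET-3, and 15 were lower and 6 higher with NT, with medians of 0.02 and -0.11. Scaled to library totals, the split was 10 lower and 16 higher with ET-3 and 11 lower and 10 higher with NT, where the median turned to 0.01. With each treated pair as 1 sample, it was 6 lower and 4 higher with ET-3 and 5 lower and 3 higher with NT, with 1 gene called lower for each. By adjusted p alone, 33.2% of all tested genes were lower and 30.6% higher with ET-3, and 32.5% and 29.7% with NT. Whether the list departs from these shares was not tested, so the named members are given as single genes. Cav3, which encodes the muscle caveolin, fell most, from 441 and 453 under DMSO to 5 and 12 under ET-3 and 18 and 11 under NT (log2 fold changes -5.66 and -4.89, limma, adjusted p = 4.48e-07 and 1.34e-06). Pak3, a Rac and Cdc42 effector kinase, declined from 75 and 52 to 23 and 23 under ET-3 and 22 and 24 under NT (-1.40 for both, limma, adjusted p = 0.000571 and 0.000601). Stab2, a phosphatidylserine receptor, had values of only 15 and 24 under DMSO, 5 and 4 under ET-3, and 3 and 7 under NT (-1.87 and -1.82, limma, adjusted p = 0.00408 and 0.00494). It reached the filter on low values only through its DMSO libraries. Elmo1, a partner of Dock1 in Rac activation, went from 50 and 42 to 14 and 21 under ET-3 and 21 and 28 under NT (-1.37 and -0.89, limma, adjusted p = 0.00171 and 0.0186). Without DMSO replicate 2, Stab2 did not pass in either comparison, and for NT Elmo1 did not pass without either DMSO library or NT replicate 1, nor Stab2 without NT replicate 1. Across the alternatives the list had 1 to 5 genes called lower with ET-3, 1 to 4 under NT, and 0 higher.

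Among the adhesion partners of the contact genes, 2 of 22 tested genes were called lower and 2 higher with each ligand, against 14.9% and 6.62% of all tested genes for ET-3 and 13.2% and 7.3% for NT. By adjusted p alone, 10 were lower and 7 higher with ET-3, and 12 were lower and 6 higher with NT, with medians of -0.12 and -0.23. With each treated pair as 1 sample, 6 were lower and 3 higher with ET-3, and 7 were lower and 3 higher with NT. Itga4, the integrin chain that binds Vcam1, fell from 541 and 487 under DMSO to 14 and 12 under ET-3 and 13 and 7 under NT (log2 fold changes -5.20 and -5.60, limma, adjusted p = 1.18e-07 and 7.86e-08). Cdh11, a cadherin of mesenchymal cells, declined from 838 and 901 to 298 and 339 under ET-3 and 373 and 340 under NT (-1.45 and -1.28, limma, adjusted p = 1.24e-07 and 3.10e-07). Cdh4, which encodes R-cadherin, rose from 5 and 2 to 52 and 43 under ET-3 and 40 and 57 under NT (3.51 and 3.52, limma, adjusted p = 1.60e-05 and 1.64e-05), and it reached the filter on low values only through the treated libraries. The adhesion molecule Nectin1 rose from 239 and 256 to 512 and 491 under ET-3 and 555 and 492 under NT (1.02 and 1.08, limma, adjusted p = 9.07e-07 and 6.51e-07). Kirrel3, a relative of Kirrel, had values between 1 and 13 and did not pass (1.22 and 1.08, limma, adjusted p = 0.13 and 0.18). The cadherin gene Cdh2, at 1136 and 1171 under DMSO, fell by less (-0.32 and -0.44, limma, adjusted p = 0.000124 and 1.15e-05). Its ET-3 difference did not pass with each treated pair as 1 sample. Thus, M-cadherin and Cdh11 fell and Cdh2 declined slightly, while R-cadherin rose from a low level.

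Of 17 tested genes of the pathway around Cdon and Boc, 9 were higher and 4 lower with ET-3 by adjusted p alone (30.6% and 33.2% of all tested genes), and 10 were higher and 4 lower with NT (29.7% and 32.5%), with medians of 0.52 and 0.59. Scaled to library totals, 12 were higher and 3 lower with ET-3, and 11 higher and 2 lower with NT. With each treated pair as 1 sample, 6 were higher with each ligand, and 3 were lower with ET-3 and 2 with NT. Called genes numbered 2 lower and 2 higher with ET-3, against 14.9% and 6.62% of all tested genes. With NT, 0 were called lower and 3 higher, against 13.2% and 7.3%. Hhip, an antagonist that binds Hedgehog ligands, rose from 68 and 32 under DMSO to 162 and 148 under ET-3 and 169 and 198 under NT (log2 fold changes 1.71 and 1.95, limma, adjusted p = 0.000322 and 0.000136). Ntn1, which encodes netrin-1, rose from 183 and 168 to 438 and 440 under ET-3 and 423 and 460 under NT (1.32 and 1.33, limma, adjusted p = 1.31e-07 and 1.39e-07). Gas1, the third co-receptor of Hedgehog ligands beside Cdon and Boc, fell from 611 and 597 to 278 and 310 under ET-3 and 322 and 317 under NT (-1.04 and -0.92, limma, adjusted p = 4.32e-07 and 1.08e-06). The other called genes, which are named because of their values, were the pathway target Gli1, lower with ET-3 (-1.15, limma, adjusted p = 0.00203) and at -0.67 under NT (limma, adjusted p = 0.0336), and the receptor Ptch1, higher with NT (1.06, limma, adjusted p = 3.29e-06) and at 0.86 under ET-3 (limma, adjusted p = 1.36e-05). Gli1 and Ptch1, both known as targets of the pathway, thus moved in opposite directions, although the change of Gli1 with NT did not pass under 7 of 16 alternatives, among them the omission of any DMSO or NT library. With each treated pair counted as 1 sample, Stab2, Pak3, Elmo1, Cdh4 and Hhip did not pass with either ligand (limma, adjusted p up to 0.162).

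The decline of the fusogens went along with that of the late myogenic program. All 8 differentiation markers were called lower with both ligands, against 14.9% of all tested genes with ET-3 and 13.2% with NT. Their medians were -4.65, also with Ckm at its bound, and -4.38. The markers were Ckm, Acta1, Myh3, Tnnt3, Tnnc2, Mylpf, Atp2a1 and Ttn. Of these, Ckm and Tnnc2 reached the filter on low values only through their DMSO libraries. Myh3, the embryonic myosin heavy chain, went from 5115 and 5798 under DMSO to 14 and 17 under ET-3 and 32 and 15 under NT (log2 fold changes -8.37 and -7.89, limma, adjusted p = 5.30e-09 and 8.46e-09), and the muscle creatine kinase Ckm from 545 and 520 to 0 and 0 under ET-3 and 0 and 1 under NT. Ttn, which encodes the giant sarcomere protein titin and had the highest values of the list, fell from 18751 and 20645 to 1406 and 1696 under ET-3 and 1912 and 1592 under NT. Log2 fold changes of the other markers ran from -2.92 (Tnnt3) to -8.50 (Tnnc2) with ET-3 and from -3.06 (Tnnt3) to -7.71 (Tnnc2) with NT.

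Of the 8 myogenic regulators, 3 were called lower with each ligand, against 14.9% of all tested genes with ET-3 and 13.2% with NT. By adjusted p alone, 5 were lower with ET-3 and 7 with NT, against 33.2% and 32.5%. The medians were -0.79 and -0.80. Myog, the factor that starts terminal differentiation, fell from 1157 and 1335 under DMSO to 31 and 38 under ET-3 and 31 and 28 under NT (log2 fold changes -5.14 and -5.35, limma, adjusted p = 2.53e-09 and 2.89e-09). Mef2c, its partner in activating muscle genes, fell from 1927 and 1930 to 8 and 10 under ET-3 and 12 and 11 under NT (-7.60 and -7.27, limma, adjusted p = 1.49e-09 and 1.80e-09). Myf6, also known as MRF4, fell from 143 and 121 to 15 and 8 under ET-3 and 15 and 12 under NT (-3.47 and -3.20, limma, adjusted p = 5.11e-06 and 9.63e-06). Mef2a decreased from 2130 and 2237 to 1169 and 1170 under ET-3 and 1191 and 1134 under NT (-0.90 and -0.91, limma, adjusted p = 9.94e-08 and 1.01e-07), a size close to that of Jam3. Pax7, the factor that marks MuSCs, was the only 1 of the 8 that passed as higher (0.86 and 0.76, limma, adjusted p = 9.75e-06 and 2.48e-05). With each treated pair as 1 sample Pax7 did not pass (limma, adjusted p = 0.0831 and 0.1), and 5 regulators were then lower with each ligand. Myod1 changed little (0.11 and -0.27, limma, adjusted p = 0.123 and 0.00243), as did Myf5 (-0.08 and -0.26, limma, adjusted p = 0.292 and 0.00598).

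**Figure D5:**
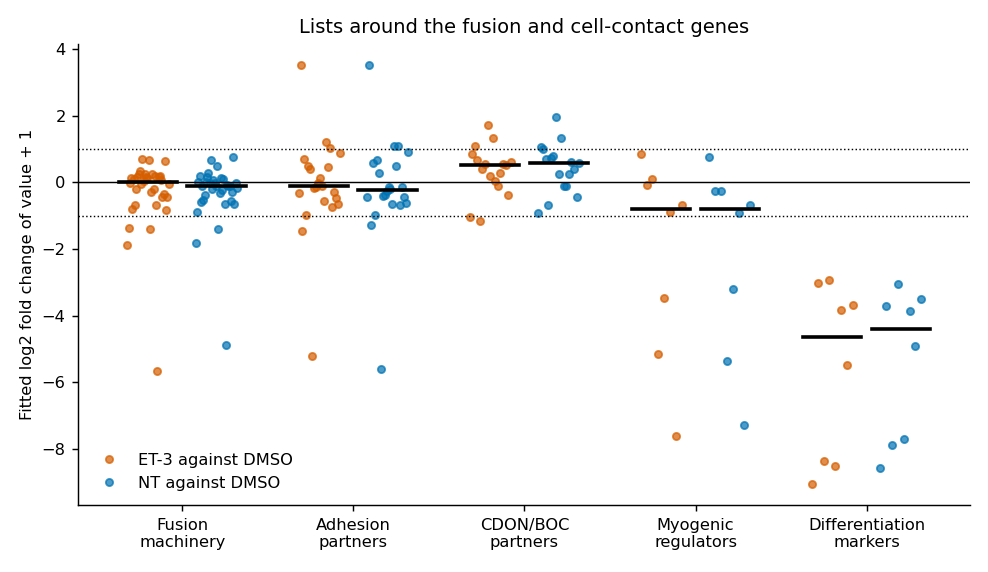
Fitted log2 fold change of value + 1 (y axis) of the tested genes (points) of 5 lists (x axis) for ET-3 and NT against DMSO, with the list median (black line). Dotted lines mark a 2-fold change. Medians lie at -4.65 and -4.38 for differentiation markers and at 0.02 and -0.11 for the fusion machinery.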

How the data were processed

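RNA-seq of FACS-purified MuSCs comprised 2 libraries in each of 3 groups. The authors' methods describe trimming, alignment to mm10 with STAR and exon counting with featureCounts, in which ambiguous and multiply aligned reads were discarded. The submitters' processing notes list other versions (STAR 2.7.7a, featureCounts 1.6.5, Trimmomatic 0.38, DESeq2 1.30.0). The labels name SMART-Seq HT for library preparation and the methods a stranded kit, so whether strand was used is uncertain. The deposited signal values are read counts scaled by 1 factor per library (0.781 to 1.19) and rounded; the scaling is not given in the sources used here. Because the values are scaled, no count model was used.

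Values were analysed as log2(value + 1) with limma 3.58.1 (lmFit, eBayes with trend) in R 4.3.3, all 6 libraries in 1 fit without a block. Genes with a mean under 5 were left out (5022 genes). Benjamini-Hochberg adjustment covered the 13921 tested genes in each of 3 comparisons. Positions and exonic lengths came from GENCODE M21 (18920 of 18943 genes matched by identifier), promoters from RefSeq. Reads behind Mymx were recovered by division by the factors. In simulated data for ET-3 against DMSO (13913 genes), 90.4% of genes changed by 1.5 and 91.6% of genes changed by 2 on the log2 scale were called, with 3 false calls. Only 114 and 83 tested genes were changed there, in both directions, and all groups had the same assumed spread. In the data far more genes were called, mostly lower, and the noise of the pairs differed. The figures are therefore no error rate of the comparisons reported here. Tables and plots were made with pandas 2.3.3, numpy 2.4.6 and matplotlib 3.10.9 in Python 3.11.15.

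The 10 genes and all gene lists were chosen with earlier results of these data known. Named list genes are those called with both ligands and the 4 with the largest mean change in each list, of which some are not reported here. Alternatives covered the filter, the scaling, the pseudocount (0.5 and 5), voom on recovered reads, a replicate block, each treated pair as 1 sample, a fit restricted to 2 groups, no fold-change threshold and the omission of each library. The table listed 0 mitochondrial genes.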

Additional observations from a re-analysis of the deposited data

Results flagged for a closer look

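The responses of 2 genes differed between ET-3 and NT by the direct test. The log2 level of Mymx was 2.20 higher with NT than with ET-3 (limma, adjusted p = 0.0379), with values of 6 and 2 against 0 and 0. With ET-3 at 0 this size depends on the pseudocount, from 0.81 at 5 to 3.01 at 0.5. The log2 level of Myof differed by -0.19, that is, it was lower with NT than with ET-3 (limma, adjusted p = 0.0466), with values of 2910 and 2836 against 3307 and 3242. Neither difference passed the test when any of the 6 libraries was left out.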

How the results depend on the processing

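Mymk, Mymx, Cdh15 and Jam3 passed the test with both ligands under all 16 alternatives, with adjusted p-values up to 0.0347 (limma), and Mymk, Mymx and Cdh15 were the 3 genes called in each. Without the fold-change threshold, 7 of the 9 genes passed with ET-3, 7 with NT and 2 between the ligands, among 8873, 8659 and 375 of all tested genes, against 2991, 2855 and 11 with it. Between the ligands, 0 of the 9 and 0 of all genes were called without the filter on low values, in the fit of 2 groups alone (where Mymx was too low to be tested) and with each treated pair as 1 sample, 0 and 7 were called with a pseudocount of 5, and 0 and 0 with any 1 library left out. Scaling to library totals moved the median of all genes for NT from -0.01 to 0.10; it turned Boc for NT to 0.02 (-0.08 relative to that median) and Cdh15 between the ligands to 0.0, and upper quartiles turned Jam3 between the ligands to -0.01. Among the omissions of a library, Boc for NT ranged from -0.26 to 0.07, and between the ligands Mymk ranged from -0.02 to 0.26, Cdh15 from -0.12 to 0.07 and Jam3 from -0.02 to 0.03.

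Libraries of the same number shared no deviations (correlations -0.008, -0.07 and -0.022), so they share only a number. With the replicate block, 3 of the 9 genes were called with each ligand, among 2985 and 2848 of all genes, and 0 of both were called between the ligands.

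With 2 libraries per group, standard errors rest on spread pooled over genes, and values below about 10 rest on few reads. The causes of these shifts were not tested.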
